A study of Mus musculus with 3 samples.

Results

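Connexins are the membrane proteins of gap junctions, and 7 connexin genes were followed in EpH4-PR cells: Gja1, Gja4, Gja5, Gjb1, Gjb2, Gjb5 and Gjb6. They were taken as every non-control probe that the array files name by one of these symbols, which gave 12 of the 41174 probes tested (7 of 29273 gene names). EpH4 is a mouse mammary epithelial cell line, and EpH4-PR cells carry a stably transfected progesterone receptor (isoform A, in selected clones kept in G418). RNA of these cells, grown in DMEM with 10% FBS to about 75% confluence, was labelled with Cy5 and hybridised to 3 Agilent mouse arrays, each against a commercial Stratagene mouse standard RNA labelled with Cy3. Each value is therefore a log2 ratio, EpH4-PR divided by reference, and the effect of the receptor was not measured, as cells with the empty vector were not analysed here. All 3 arrays had the same dye orientation, so that a dye bias of a probe and a difference between the RNAs cannot be told apart. The sources do not say whether the arrays came from separate cultures, so p-values measure only the spread between these 3 arrays.

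A gap junction channel is made of a pair of docked hemichannels, one from each of the adjoining cells, and each hemichannel is a ring of connexin subunits. Ions and small metabolites pass directly between the cells through it. In the mammary gland Gja1 (Cx43) is known mainly from the myoepithelium, whereas Gjb1 (Cx32), Gjb2 (Cx26) and Gjb6 (Cx30) belong to the luminal cells and are regulated in pregnancy and lactation. Gja4 (Cx37) and Gja5 (Cx40) are connexins of vascular endothelium, and Gjb5 is best known from the epidermis and the placenta.

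The promoters of Gja1 and Gjb2 are shown because these genes held the lowest and the highest ratio of the 12 probes after loess normalization. Under median centring Gja1 (0.13) was not the lowest. Each is the 250 bases before the RefSeq start site in build GRCm38.p6, read along the gene from 5′ to 3′, with matches to 4 searched motifs in capitals. The Gja1 promoter lies on the plus strand at chr10:56377050-56377299, and that of Gjb2 on the minus strand at chr14:57104703-57104952.
Gja1: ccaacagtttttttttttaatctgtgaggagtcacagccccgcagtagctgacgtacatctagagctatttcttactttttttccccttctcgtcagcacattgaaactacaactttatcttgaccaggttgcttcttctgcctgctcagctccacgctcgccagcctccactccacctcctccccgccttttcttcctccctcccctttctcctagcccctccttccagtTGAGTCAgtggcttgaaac
Gjb2: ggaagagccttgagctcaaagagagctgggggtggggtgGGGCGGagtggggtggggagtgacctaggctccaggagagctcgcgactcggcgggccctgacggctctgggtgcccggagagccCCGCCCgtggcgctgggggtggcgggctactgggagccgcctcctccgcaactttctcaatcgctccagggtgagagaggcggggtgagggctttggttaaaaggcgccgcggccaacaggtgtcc
The motif searched for the GC box was GGGCGG. That for the AP-1 site was TGANTCA, and for a single binding arm of the steroid hormone receptors AGAACA. The TATA box was searched as TATAAA. Both strands of the 300 bases from 250 before to 50 after the start were searched, and no match overlapped another in these genes. The capitals of Gja1 are a TGANTCA match that starts at position -19. Those of Gjb2 are GGGCGG at -211 and its reverse complement at -126. Of the 32851 promoters in the RefSeq table, 35.7% held the GC box, 7.81% the AP-1 site, 19.0% the receptor arm and 13.6% the TATA box. The GC content of the 300 bases was 47.7% for Gja1 and 70.0% for Gjb2, against a median of 52.7% over all promoters. All 7 genes had an entry, with 10 promoters in all. GGGCGG was also found for Gja4 at -79 and for Gja5 at -17. Gjb1 had AGAACA matches in 2 of its 4 promoters, and 1 of these also held GGGCGG and, at -29, TATAAA. Gjb5 held TATAAA on the reverse strand at -243, and Gjb6 had no match. These are matches of letters, and binding was not measured.

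The arrays were alike in their ratios but not in brightness or outlier spots. Over all probes, which are not independent replicates, the log2 ratios of the arrays correlated with r of at least 0.923. Per array, 29603 to 30939 probes were well above background in Cy5. Median Cy3 intensity was 141.6, 139.9 and 107.7 on arrays 1, 2 and 3, and outlier spots outside the controls numbered 150, 18 and 3. A probe is called higher or lower here where the limma adjusted p was under 0.05 and the log2 ratio at least 1 in size. Over all probes, 2.26% were called higher and 3.83% lower. Of 9 probes of luminal epithelial markers 7 were higher than in the reference, with Cdh1 (E-cadherin) the highest at 4.29, and Krt19 the lowest at -2.62. Of 16 probes of basal and myoepithelial markers, 1 was higher (Krt14, 2.08) and 2 were lower (Acta2, -2.01, and Mylk, -1.09), and another Acta2 probe was at 0.60. The Acta2 probe called lower was dim in Cy5 (68.4 to 84.3) and well above background there on only 1 array. The Acta2 probe at 0.60 was bright (6037 to 6353) and stood at 2.03 under median centring. Of 16 mesenchymal and endothelial probes 0 were higher and 6 lower, with Vim the lowest at -6.51 and Kdr the highest at 0.21. All probes of Oxtr and Cdh5 were not well above background in Cy5 on any array. Summed Cy5 intensity was 94847 to 110992 for the luminal list, 9825 to 10280 for the basal list and 5019 to 5534 for the mesenchymal and endothelial list; the part of other cell types in the connexin values was not tested.

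Gja1 was the only member with a bright signal. Its Cy5 intensity was 897, 803 and 815 on arrays 1, 2 and 3, which was 10.8 to 14.2 times the median of the negative control spots. The Cy3 intensities were 749.9, 724 and 700.0. Every other member stayed at or below 3.14 times the negative controls in Cy5. The 314 negative control spots had medians of 57.3 to 74.1 in Cy5 and 91.8 to 121 in Cy3, with 95th percentiles of 62.9 to 87.4 and 107 to 168. Of the 12 probes, 7 were well above local background in Cy5 on all arrays by the scanner software, 6 in both channels, and 2 in neither channel on any array. The local background that this call uses, 42 to 43 in Cy5 as a median over spots, was lower than the negative control spots. No member spot was saturated or an outlier.

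**Figure D1:**
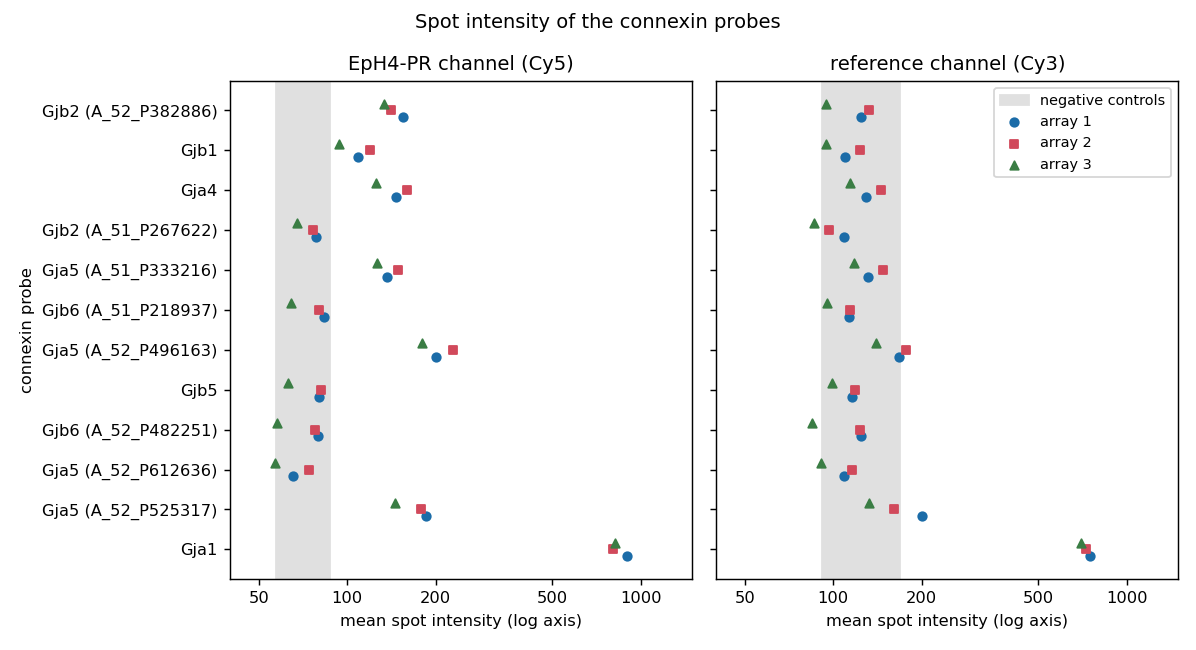
Mean spot intensity (horizontal, log axis) of the 12 connexin probes on 3 arrays in the EpH4-PR channel and the reference channel; points are arrays, and the grey band runs from the lowest median to the highest 95th percentile of the negative control spots. Gja1 lies far to the right in both channels (803 to 897 in Cy5). The other probes lie in the band or closer to it, and several are right of it in Cy5, such as Gja5 probe A_52_P496163 (180 to 229).

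Gja1, the connexin of myoepithelial cells, was lower in EpH4-PR than in the reference RNA after loess normalization, and this direction turned under median centring of the arrays (0.13). The log2 ratios were -1.05, -1.12 and -1.10 on the 3 arrays, a mean of -1.09 ± 0.04 (SD, n = 3), or 2.13-fold lower (limma, Benjamini-Hochberg adjusted p = 5.55e-05). These loess values lay close together, and none of them overlapped with those of any other member. Median centring gave 0.21, 0.09 and 0.08, with an adjusted p of 0.0435 from limma. These values lay within the range of Gja5 probe A_52_P525317 (0.02 to 0.37), so that Gja1 no longer stood apart. The 2 settings differ in the correction for brightness. The 1000 probes nearest to Gja1 in brightness had a median ratio of 1.29 before loess, so that Gja1 lay below probes of its own brightness and slightly above the median of the array. The ratio was -1.20 with a normexp offset of 0 and -1.19 from the scanner software.

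**Figure D2:**
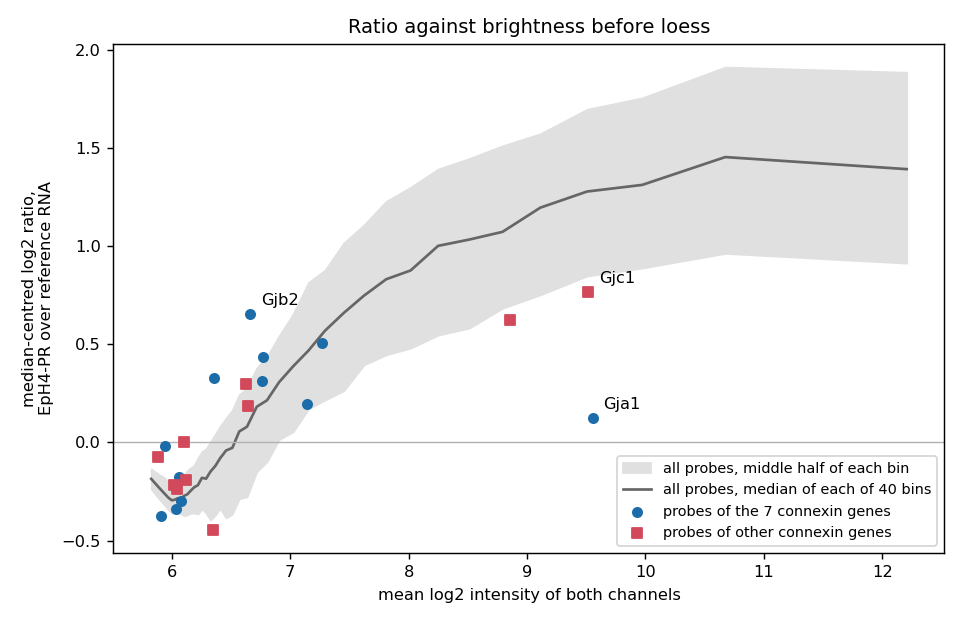
Median-centred log2 ratio (vertical, EpH4-PR divided by reference) against the mean log2 intensity of both channels (horizontal), before loess; the line is the median of all probes in each of 40 brightness bins, the grey band the range between their quartiles, and the points are connexin probes. Gja1 is at 0.13 where its 1000 nearest probes have a median of 1.29, and the brighter Gjc1 probe is at 0.77 where they have 1.29.

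Of the luminal connexins, Gjb1 and Gjb2 passed above 0 without reaching a log2 ratio of 1, and Gjb6 did not pass. For Gjb2, a main connexin of the secretory epithelium, probe A_52_P382886 gave 0.70, 0.39 and 0.62, a mean of 0.57 ± 0.16 (SD, n = 3, limma adjusted p = 0.0023). All 3 arrays were above 0. Its Cy5 intensity was 156, 141 and 134, above the 95th percentile of the negative controls on each array, while in Cy3 it was 125, 132 and 94.3, or 1.03 to 1.09 times their median. Its ratio was 1.31 with a normexp offset of 0 and 2.27 from the scanner software, and it missed the threshold by the methods' test after Benjamini-Hochberg adjustment (adjusted p = 0.0740). The other Gjb2 probe, A_51_P267622, gave 0.13, 0.26 and 0.21 (mean 0.20 ± 0.06, SD, n = 3, limma adjusted p = 0.0201), and it was well above background in either channel on only 1 array. Under median centring it was at -0.020 (limma adjusted p = 0.731). The scanner software gave 1.04 (adjusted p = 0.308, limma) and a normexp offset of 0 gave 1.27 (adjusted p = 0.0475, limma), and without array 2 it did not pass (0.17, limma adjusted p = 0.129).

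Gjb1, which forms channels in secretory and liver epithelium, had log2 ratios of 0.67, 0.39 and 0.28. The mean was 0.45 ± 0.20 (SD, n = 3, limma adjusted p = 0.0101), and all arrays lay above 0. In Cy3 the probe was at 0.92 to 1.03 times the negative control median. The ratio was 1.29 (adjusted p = 0.0528, limma) with an offset of 0 and 0.65 (adjusted p = 0.101, limma) from the scanner software, so that it no longer passed under either.

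Gjb6, a partner of Gjb2 in many epithelia, did not pass with either probe. A_51_P218937 gave 0.19, 0.11 and -0.09, on both sides of 0. A_52_P482251 gave -0.11, -0.14 and -0.05 and was not well above background in either channel on any array. The 95% intervals of the means were -0.10 to 0.24 and -0.21 to 0.01.

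The vascular connexins did not pass where they were measured above background. Gja4 gave 0.56, 0.19 and 0.03, a mean of 0.26 ± 0.27 (SD, n = 3, limma adjusted p = 0.102), with array 1 well above the other two. Its 95% interval ran from -0.02 to 0.54, and under median centring it passed at 0.44. Gja5 had 4 probes that lay on both sides of 0. A_51_P333216 gave 0.43, 0.06 and -0.06, and A_52_P525317 gave -0.50, -0.03 and -0.25, so that array 1 was the farthest from 0 in both, in opposite directions. A_52_P496163 gave 0.03, 0.0044 and -0.11, with the highest Cy5 intensities among Gja5 probes (180 to 229), and stood at 0.51 under median centring. The fourth, A_52_P612636, gave -0.23, -0.10 and -0.15 (limma adjusted p = 0.0429) but was not well above background in either channel on any array, so that no fold is given. The last 2 probes are tied to cDNA accessions outside the RefSeq table and carry the name Gja5 by the array files alone. Both Gjb6 probes carry a RefSeq accession that was not found in that table, so their name also rests on the array files.

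Gjb5, the epidermal connexin, gave 0.06, -0.0021 and -0.21, a mean of -0.05 ± 0.14 (SD, n = 3, limma adjusted p = 0.547). It was well above background in Cy5 on 1 array and in Cy3 on 3. The arrays lay on both sides of 0.

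**Figure D3:**
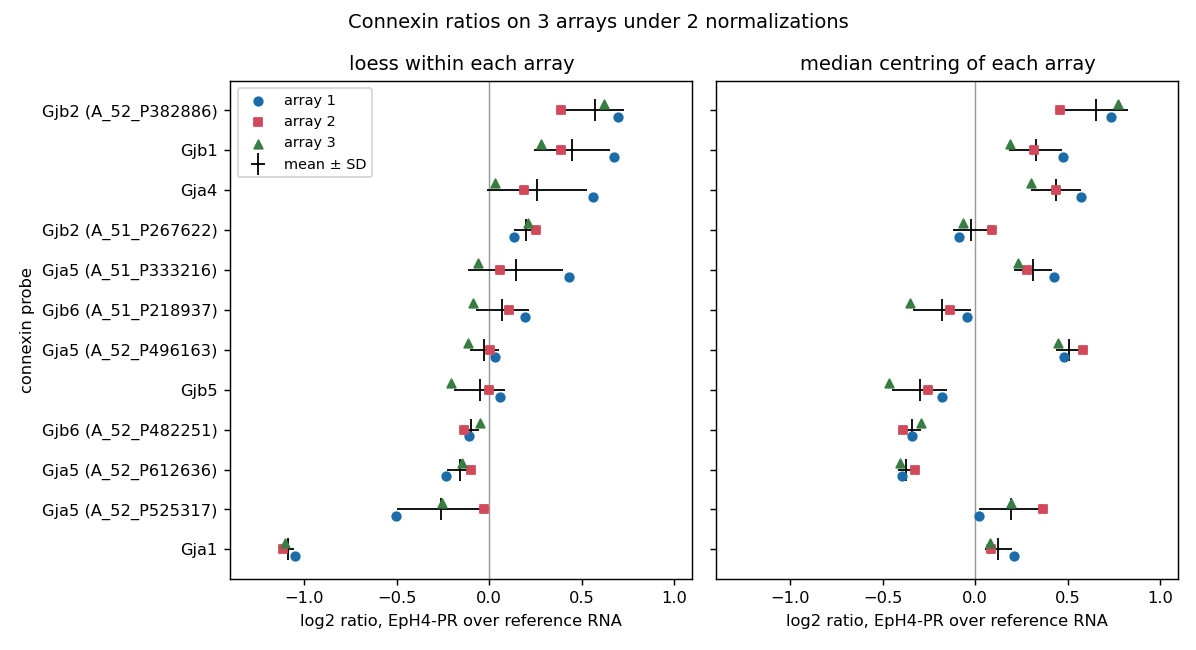
Log2 ratio (horizontal, EpH4-PR divided by reference) for the 12 connexin probes on each of 3 arrays, after loess (left) and after median centring (right); bars are mean ± SD. Gja1 moves from -1.09 to 0.13 between the panels, while Gjb2 probe A_52_P382886 stays above 0 (0.57 and 0.66).

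After loess, mean ratios ran from Gjb2 (0.57) down to Gja1 (-1.09). In this order the array values of neighbouring probes overlapped at each step but the last, between Gja5 probe A_52_P525317 and Gja1. Under median centring Gja1 (0.13) was not last, and Gja5 probe A_52_P612636 was the lowest (-0.38). Of the 12 probes, 3 passed above 0 (adjusted p under 0.05 by limma), where 25.7% of all 41174 probes did, and 2 passed below 0, against 24.6%. By the stricter call, 0 connexin probes were higher (2.26% of all probes, 932) and 1 was lower, Gja1 (3.83%, 1578). These shares were near those of all probes and are no result about the connexins as a group. At any p, no member probe reached a log2 ratio of 1 above 0, whereas a normexp offset of 0 gave 2 connexin probes called higher, both of Gjb2. The scanner software gave 1 higher, Gjb2 probe A_52_P382886, and 2 lower, Gja1 and Gjb5. The median ratio was 0.02 for the 12 probes and -0.01 for all probes. Median centring moved the split of all calls from 932 higher and 1578 lower (37.1% higher) to 7031 and 708 (90.9% higher), and the scanner software gave 3616 and 3887 (48.2% higher).

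**Figure D4:**
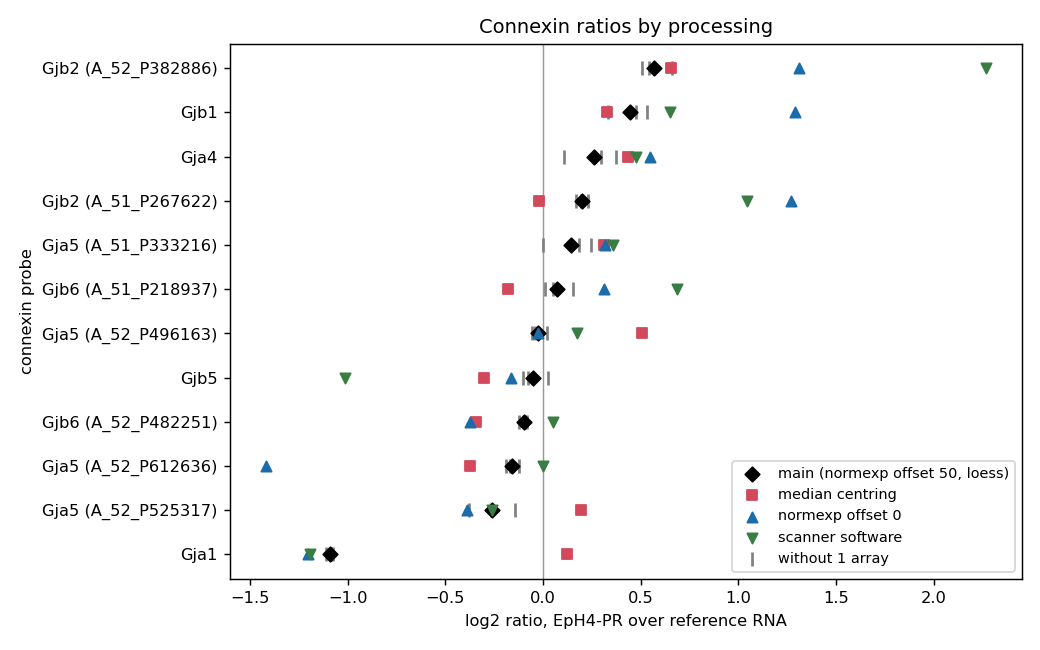
Log2 ratio (horizontal) of the 12 connexin probes under the main processing, 3 alternatives and with each array left out. Gja1 lies between -1.20 and -1.08 in all of these but median centring (0.13), and Gjb2 probe A_52_P382886 ranges from 0.51 to 2.27. The offset of 0 and the left-out arrays keep the loess correction, so they cannot show how Gja1 depends on it.

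Of 9 other connexin genes considered, 8 had a probe, 10 probes in all, under older symbols for 5 of them. Of these probes 2 passed above 0, 2 below and 6 did not pass, where 25.7% of all probes passed above 0 and 24.6% below. The counts are no result about these genes as a group. Their mean log2 ratios ran from -0.46 to 0.25, so that none reached 1 in size. Their median was 0.04, against 0.02 for the 12 member probes and -0.01 for all probes.

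Gjc1 (Cx45), known from the heart and smooth muscle, was bright as well, at 7.71 to 18.2 times the negative controls over both probes. Its probes gave -0.44 ± 0.01 and -0.46 ± 0.05 (SD, n = 3, limma adjusted p = 0.000773 and 0.000884) after loess, and 0.77 and 0.62 after median centring, so that its direction turned as that of Gja1 did. The retinal connexin Gja10 passed at 0.24. By probe A_51_P111704 the lens connexin Gja3 was not well above background in Cy3 on any array. This probe passed at 0.25 after loess (95% interval 0.13 to 0.38), but was at 0.0021 after median centring. The other Gja3 probe was at 0.03. The values that did not pass were 0.01 for Gja6, 0.06 for Gjc3, 0.12 for Gjd3, 0.13 for Gjd4 and -0.30 for the neuronal Gjd2, whose arrays ran from -0.88 to 0.04. Gja6 and Gjd4 were not well above background in Cy5 on any array.

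Pannexins form channels related in shape but not in sequence to those of connexins, and as a rule make no gap junctions. Panx1 probe A_51_P135340 was lower at -2.24, -2.15 and -2.43, a mean of -2.27 ± 0.14 (SD, n = 3, limma adjusted p = 2.85e-05), and it remained below 0 at -1.67 after median centring. The other Panx1 probe was at -0.16 (limma adjusted p = 0.0419). It was not well above background in Cy5 on any array, and in Cy3 on only 1, so that no fold is given. Panx3 was at 0.16 and not well above background in either channel.

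**Figure D5:**
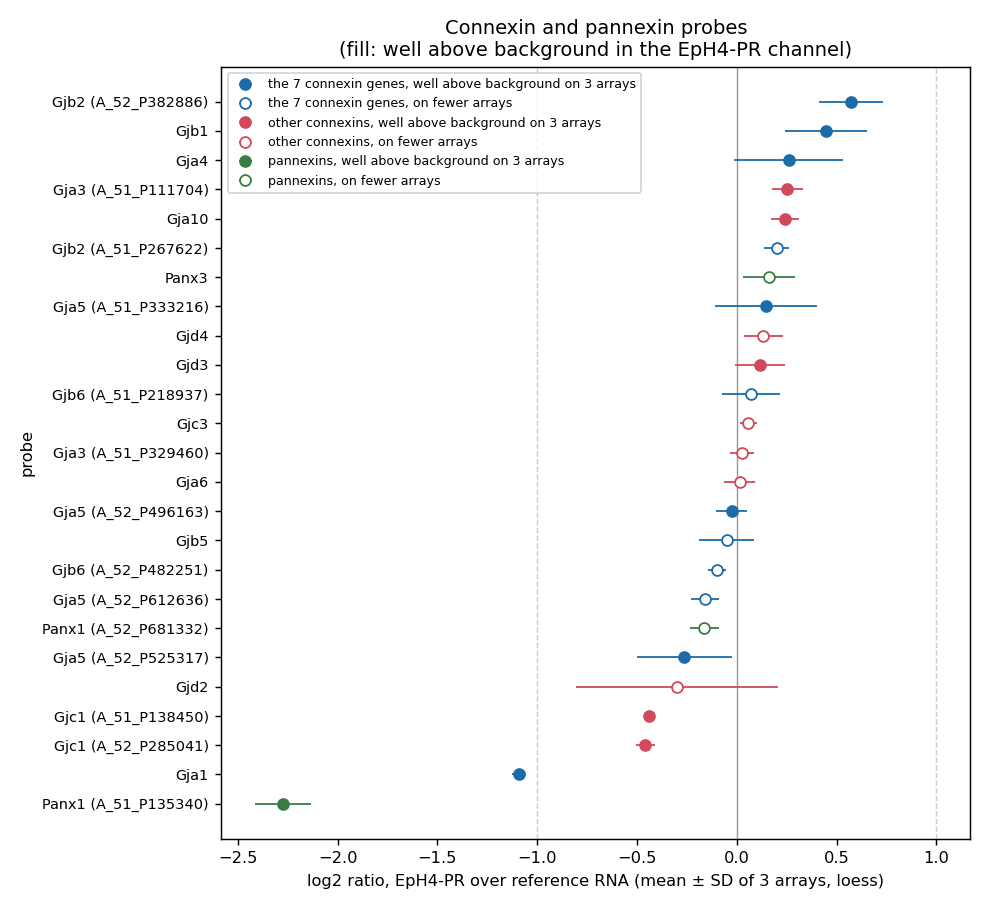
Log2 ratio after loess (horizontal, EpH4-PR divided by reference, mean ± SD of 3 arrays) for the connexin and pannexin probes described; filled points passed the background flag in Cy5 on every array, and dashed lines mark ratios of 1 and -1. Gja1 (-1.09) and Panx1 probe A_51_P135340 (-2.27) lie beyond the dashed lines; Gja1 and both Gjc1 probes lie above 0 under median centring instead.

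Genes whose products bind, traffic or modify connexins were measured with 32 probes of 18 genes. Of these, 10 passed above 0, 8 below and 14 did not pass. Over all probes 25.7% passed above 0 and 24.6% below, so that these counts are no result about the list. Smurf2, a ubiquitin ligase, was the highest with 1.14 by probe A_52_P576886, and its other probes were at 0.35 and 0.79. Ccn3, a secreted protein that binds Gja1, was called lower (limma adjusted p = 6.38e-05) but was not well above background in Cy5 on any array. Its measured log2 ratio was -1.62 after loess, or 3.08-fold lower than in the reference, with a 95% interval of -1.80 to -1.45. With Cy5 at 1.09 to 1.24 times the negative control median, the size of this ratio is uncertain. After median centring the ratio was -1.44. The caveolar protein Cav1 was also called lower, at -1.37, while its other probe was at -0.02; it is named because its values were seen. Under median centring Cav1 stood at 0.06, and the calls of the list changed from 1 higher and 2 lower to 15 and 1. Those of all probes changed from 932 and 1578 to 7031 and 708.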

How the data were processed

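Per the labels, 3 two-colour Agilent arrays were scanned and extracted by the authors' service provider with Feature Extraction 8.1.1.1. The deposited files hold spot intensity and local background per channel, flags, and a log10 ratio of the scanner software, which was turned into log2 as an alternative. A deposited table of the authors' own comparison (fold changes, ratios and p-values between 2 unnamed sides) was not used. Mean intensities were corrected with normexp (offset 50) on the local background median and normalized by loess within arrays with limma 3.58.1 in R 4.3.3, control and outlier spots having weight 0 in loess. Outlier spots were left out and spots of a probe averaged. Each probe's log2 ratio was set against 0 by lmFit and eBayes, with Benjamini-Hochberg adjustment over 41174 probes. The fit was tested on simulated data, where it first fell short of the recovery required. It met it once the simulated noise was drawn from moderated in place of raw SDs, and the fit was not changed. The moderated SDs came from the same fit, so the second result cannot show how the fit does under other noise. Probes of a gene were kept apart. Of 23705 probes with a RefSeq accession, 21445 were matched to RefSeq (GRCm38.p6), and 8 of the 12 connexin probes. Folds are measured loess ratios, also where 1 channel was not above background, and are open to dye bias. Array number limits the precision, each slide held 1 array, and no slide block could be used. Every probe of the connexins and pannexins considered is named, and of the other lists the highest and lowest gene and the markers not above background. The members and lists were chosen with earlier results of these data known. Protein sequences were not used here, and some genes of the lists are not reported here.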

Additional observations from a re-analysis of the deposited data

How the results depend on the processing

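Median centring in place of loess turned Gja1 to 0.13, Gja5 probes A_52_P496163 to 0.51 and A_52_P525317 to 0.19, Gjb2 probe A_51_P267622 to -0.020 and Gjb6 probe A_51_P218937 to -0.18. With it Gja4 (0.44), Gja5 probe A_51_P333216 (0.31), Gjb5 (-0.30) and Gjb6 probe A_52_P482251 (-0.34) came to pass. So did the turned probes of Gja5 and Gjb6, whereas the turned Gjb2 probe no longer passed. Under this setting 0 connexin probes were called lower, 25 other listed probes were called higher in place of 9, and all calls were 7031 higher and 708 lower. With a normexp offset of 0, Gja5 probe A_52_P612636 (-1.42) and Gjb1 (1.29) no longer passed and Gjb6 probe A_52_P482251 (-0.37) did; 2 connexin probes were called higher, and all calls were 3125 higher and 3905 lower. The ratios of the scanner software turned Gja5 probe A_52_P496163 (0.18) and Gjb6 probe A_52_P482251 (0.054), lost Gja5 probe A_52_P612636 (0), Gjb1 (0.65) and Gjb2 probe A_51_P267622 (1.04), and gained Gjb5 (-1.01); 1 connexin probe was called higher and 2 lower, among 3616 and 3887. Gja5 probe A_52_P612636 missed the threshold with scaled arrays (-0.16) and median spot intensity (-0.16). It also missed it by an ordinary t-test of the loess ratios against 0 (-0.16, with and without adjustment). Gjb1 (0.45) missed it by that test in both forms, and after adjustment so did Gjb2 probes A_51_P267622 (0.20) and A_52_P382886 (0.57). An intensity trend made Gja5 probe A_52_P525317 (-0.26) pass. The cause of these changes was not tested.

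Leaving out 1 array each, with loess kept, gave -1.11 to -1.08 for Gja1, which passed each time. It gave 0.11 to 0.37 for Gja4, which passed without array 3 (0.37). It gave -0.055 to 0.019 for Gja5 probe A_52_P496163 and -0.10 to 0.027 for Gjb5, both turned without array 3. Gja5 probe A_52_P525317 ranged from -0.38 to -0.14 and passed without array 2 (-0.38). Gja5 probe A_52_P612636 (-0.19 to -0.12) missed the threshold each time. Gjb2 probe A_51_P267622 (0.17 to 0.23) missed it without array 2. Gja5 probe A_51_P333216 ranged from 0.00012 (without array 1) to 0.24 and Gjb6 probe A_51_P218937 from 0.011 to 0.15, neither passing. The filter on dim probes gave no value for Gja5 probe A_52_P612636, Gjb2 probe A_51_P267622 and both Gjb6 probes. Outlier spots kept changed no connexin call. No paired analysis was possible because there is 1 group. Of the 12 connexin probes, 6 lay within 2 times the negative controls in Cy5 on all arrays, which limits what their ratios can show.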
